A study of Mus musculus with 36 samples.

Results

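The 10 genes described here are 9 members of the BCL2 family and Acoxl, the gene next to the family member Bcl2l11 on mouse chromosome 2. They were selected by gene symbol, with results of these data already known, from the genes measured in nephron progenitor cells (NPCs) cultured at different strengths of Wnt signaling. All 10 were found in each of 3 tables of normalized read counts, which hold 25760, 26863 and 26472 genes. The values that led to the choice include the rise of Bcl2l11 after β-catenin removal in low CHIR. That comparison is therefore given as a description with no test, for Bcl2l11 and for its neighbour Acoxl. Its low-CHIR controls are also used in tests of high against low CHIR, so those tests are not independent of the choice. The NPCs came from pooled E16.5 mouse kidneys and were grown in nephron progenitor expansion medium (NPEM) with CHIR, an inhibitor of the kinase GSK3 through which β-catenin accumulates. CHIR was absent (0 µM, no CHIR), at 1.25 µM (low CHIR, in which NPCs self-renew) or at 5 µM (high CHIR, in which they differentiate), and RNA was taken after 24 h.

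The 36 libraries of bulk RNA fall into 15 groups. Wild Type NPCs, which were not transfected, gave 3 libraries each in no, low and high CHIR. In the β-catenin experiment NPCs of the genotype B-catenin_c_c, which carry a conditional β-catenin allele, received Cre mRNA or no Cre. NPCs of the genotype Cas9-eGFP received 4 guides against Ctnnb1, the β-catenin gene, or a guide against GFP. Each of these arms had 2 libraries in low CHIR and 2 in high CHIR, after a removal period of 24 h in low CHIR. In the Tcf/Lef experiment Cas9-eGFP NPCs received guides against the 4 genes Tcf7l1, Tcf7l2, Tcf7 and Lef1, which encode the DNA-binding partners of β-catenin (QKO), or the GFP guide, and had a knockout period of 48 h. That experiment had 3 GFP-guide and 2 QKO libraries in low CHIR and 3 of each in high CHIR. Transfected cells were sorted for a co-transfected mCherry mRNA, so each edited library is a pool of cells with different edits and not a clone. The labels do not say whether samples of a group came from separate litters, so p-values measure the spread between these samples.

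BCL2 family proteins set whether the outer membrane of mitochondria is opened, the step that commits a cell to apoptosis. Pro-survival members (Bcl2, Bcl2l1, Bcl2l2, Mcl1) hold the effectors (here Bak1) in check, and BH3-only members (Bcl2l11, Bmf, Bid, Bik) bind the pro-survival proteins or activate the effectors. Bcl2l11 encodes BIM, and loss of Bcl2 in mice is known to leave too few nephrons, a defect that loss of BIM relieves. Acoxl encodes an acyl-CoA oxidase-like protein of lipid metabolism and is not a BCL2 family gene.

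Bcl2l11 lies at chr2:128126038-128162547 and Acoxl at chr2:127838876-128123873, both on the plus strand of GRCm38 in the GENCODE annotation. They stand in tandem, with 2164 bases between the end of Acoxl and the start of Bcl2l11. A 300-base window around a RefSeq start site (GRCm38.p6, plus strand) is shown for each gene, because the comparison of the pair is about their starts. Bcl2l11 has 2 such windows, and the first is shown. Its start is 271410 bases from that of Acoxl. The capitals in the Bcl2l11 window shown, chr2:128125788-128126087, mark a match to GTAAACA, the core motif of the FOXO factors, which are known regulators of BIM. The Acoxl window is chr2:127854378-127854677 and starts inside the GENCODE model of Acoxl, since the RefSeq start lies 15752 bases downstream of the GENCODE one.
Bcl2l11: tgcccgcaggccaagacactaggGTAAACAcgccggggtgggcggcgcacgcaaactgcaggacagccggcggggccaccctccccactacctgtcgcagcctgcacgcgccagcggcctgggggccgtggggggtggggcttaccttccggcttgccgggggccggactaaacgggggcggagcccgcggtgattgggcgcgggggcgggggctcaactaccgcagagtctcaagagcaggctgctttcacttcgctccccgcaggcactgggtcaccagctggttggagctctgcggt
Acoxl: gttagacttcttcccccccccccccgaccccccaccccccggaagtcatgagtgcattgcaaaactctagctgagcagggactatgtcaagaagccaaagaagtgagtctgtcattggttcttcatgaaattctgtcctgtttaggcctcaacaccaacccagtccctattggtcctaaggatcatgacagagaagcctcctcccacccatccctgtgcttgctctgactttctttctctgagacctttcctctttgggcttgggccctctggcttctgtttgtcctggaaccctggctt

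The Bcl2l11 window shown is 71% G or C and that of Acoxl 53%. The other Bcl2l11 window, chr2:128127325-128127624, is 74% G or C and held 0 matches to the 2 motifs searched. RefSeq start windows were matched for 9 of the 10 genes, with 14 windows in all. CTTTGAT or CTTTGTT, the motif of Tcf/Lef factors, was searched on both strands and was in 0 of these 14 windows, against 9.33% of 32851 windows of the same length. GTAAACA was in 1 of the 14, the Bcl2l11 window shown, against 3.65% of all windows. A match is a description of letters and not a binding site, and sequence outside these windows was not searched.

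The sequenced libraries held 13651129 to 76071568 reads on genes in the wild-type table, 14537850 to 27838106 in the β-catenin table and 13089780 to 20152719 in the Tcf/Lef table. Ctnnb1 counted 1040 and 1652 normalized counts with the Ctnnb1 guides against 2521 and 3397 with the GFP guide in low CHIR, and 1270 and 1630 against 2632 and 2701 in high CHIR. With Cre it counted 2451 and 3085 against 3097 and 3880 in low CHIR, and the groups overlapped in high CHIR (2254 and 2583 against 2207 and 2423). These counts cover all exons, so reads outside the deleted part do not check the deletion. In QKO, Tcf7 was below every GFP-guide library in both CHIR levels, Tcf7l1 in low CHIR and Lef1 in high CHIR. Tcf7l2 overlapped in both CHIR levels, Tcf7l1 in high CHIR and Lef1 in low CHIR. The study reports a loss of each protein by staining with single guides, which these RNA counts do not measure. All 7 nephron progenitor markers were detected in every group but wild type in high CHIR, where Osr1 was at 0. Their sum in wild type was 26200 to 31000 in no, 13800 to 19500 in low and 3850 to 7160 in high CHIR. In high CHIR it was 12800 to 16900 with Cre against 8210 to 10600 without. With Ctnnb1 guides it was 16000 to 17100 against 9130 to 11200 with the GFP guide, and QKO overlapped its controls (9330 to 12100 against 9760 to 10300). The summed induced-progenitor markers were 28100 to 38700 in high and 4310 to 8770 in low CHIR in wild-type NPCs. In high CHIR they were 3310 to 3620 with Cre against 18900 to 21000 without, 5540 to 8040 with Ctnnb1 guides against 23800 to 25200 with the GFP guide, and 14500 to 25900 in QKO against 22800 to 40100. All 7 stromal markers were detected in every group, and their sum was 3530 to 11000 in high and 18300 to 23100 in low CHIR in wild-type NPCs. In high CHIR it was 7950 to 13000 with Cre against 5250 to 6520 without, and it overlapped for Ctnnb1 guides (13900 to 21200 against 6120 to 16700) and QKO (1940 to 8890 against 1080 to 3800). Of 7 ureteric epithelium markers, 6 were analysed and detected in wild-type NPCs in low and high CHIR, with a sum of 1720 to 5930 in high and 566 to 794 in low CHIR, and in high CHIR the sum was 458 to 498 with Cre against 805 to 923 without. Of 7 blood markers, 6 were analysed and detected there, with a sum of 235 to 346 in high and 727 to 886 in low CHIR. The part of these differences in cell makeup in the results below was not tested. In bulk samples, fewer cells of a type and less RNA per cell cannot be told apart. GFP-guide library 1 in high CHIR of the Tcf/Lef experiment had a blood marker sum of 2940 against 30.9 to 84.8 in the other 10 libraries of that table.

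A gene was called changed at an adjusted p under 0.05 (limma, Benjamini-Hochberg over all genes tested) and an absolute log2 difference of at least 0.5. Log2 differences are of normalized count + 1, which understates the change of genes with few reads. The 3 tables were normalized separately, so tests stay within a table. In high against low CHIR, 3 of 10 members were called in wild-type NPCs (Bmf and Bid higher, Bcl2 lower), where 10.4% of all genes tested were called. In the no-Cre controls 4 of 10 were called (Bmf higher, and Bcl2, Bcl2l11 and Acoxl lower) against a background of 8.05%. In the GFP-guide controls of the β-catenin experiment 4 of 10 were called, with the same names and directions, against 7.51%. In the GFP-guide controls of the Tcf/Lef experiment 4 of 9 were called (Bmf and Bik higher, Bcl2l11 and Bcl2 lower) against 14.9%, and Acoxl was too low to be tested there. In no against low CHIR 2 of 10 were called (Bcl2l11 and Acoxl higher) against 4.97%.

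β-Catenin removal in high CHIR called 4 of 10 members with Cre (Bcl2l11, Acoxl and Bcl2 higher, Bmf lower), against 8.65% of all genes, and 4 of 10, the same genes in the same directions, with Ctnnb1 guides, against 5.09%. QKO in high CHIR called 2 of 9 (Bcl2 higher, Bmf lower) against 2.54%, and 4 of 9 against 7.44% with the paired replicate numbers as a block. In low CHIR, of the 8 members tested, Cre removal called 0 against 0.328% of all genes, with Bcl2 and Bik at an unadjusted p under 0.05. edgeR called 0 of these 8, against 0.28% of all genes, and DESeq2 called 2, Bcl2 and Bik, against 1.66%. Ctnnb1 guides in low CHIR called 0 of the 8 against 0.0536% (limma), with Bmf and Bcl2 at an unadjusted p under 0.05. There 0 were called by edgeR, against 0.0358%, or by DESeq2, against 0.179%. QKO in low CHIR called 0 of 9 against 0.0063% (limma), with Bcl2l1 at an unadjusted p under 0.05. Again 0 were called by edgeR, against 0.0063%, or by DESeq2, against 0.139%. The test of whether a removal acted differently in high than in low CHIR called Bcl2 and Bmf for Cre, against 0.995% of genes, and for Ctnnb1 guides, against 0.518%. For QKO it called Bcl2 alone among the members, against 0.126%. The median log2 difference over the members lay between -0.23 and 0.38 in the 5 CHIR comparisons and between -0.1 and 0.21 in the 6 removal and QKO comparisons. The median over all genes tested lay between -0.02 and 0.04. The low-CHIR removal medians include the described values of Bcl2l11 and Acoxl. Most members were not called. Called members were all higher in no against low CHIR. They went in both directions in the other CHIR comparisons and in the removals and QKO in high CHIR.

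**Figure D1:**
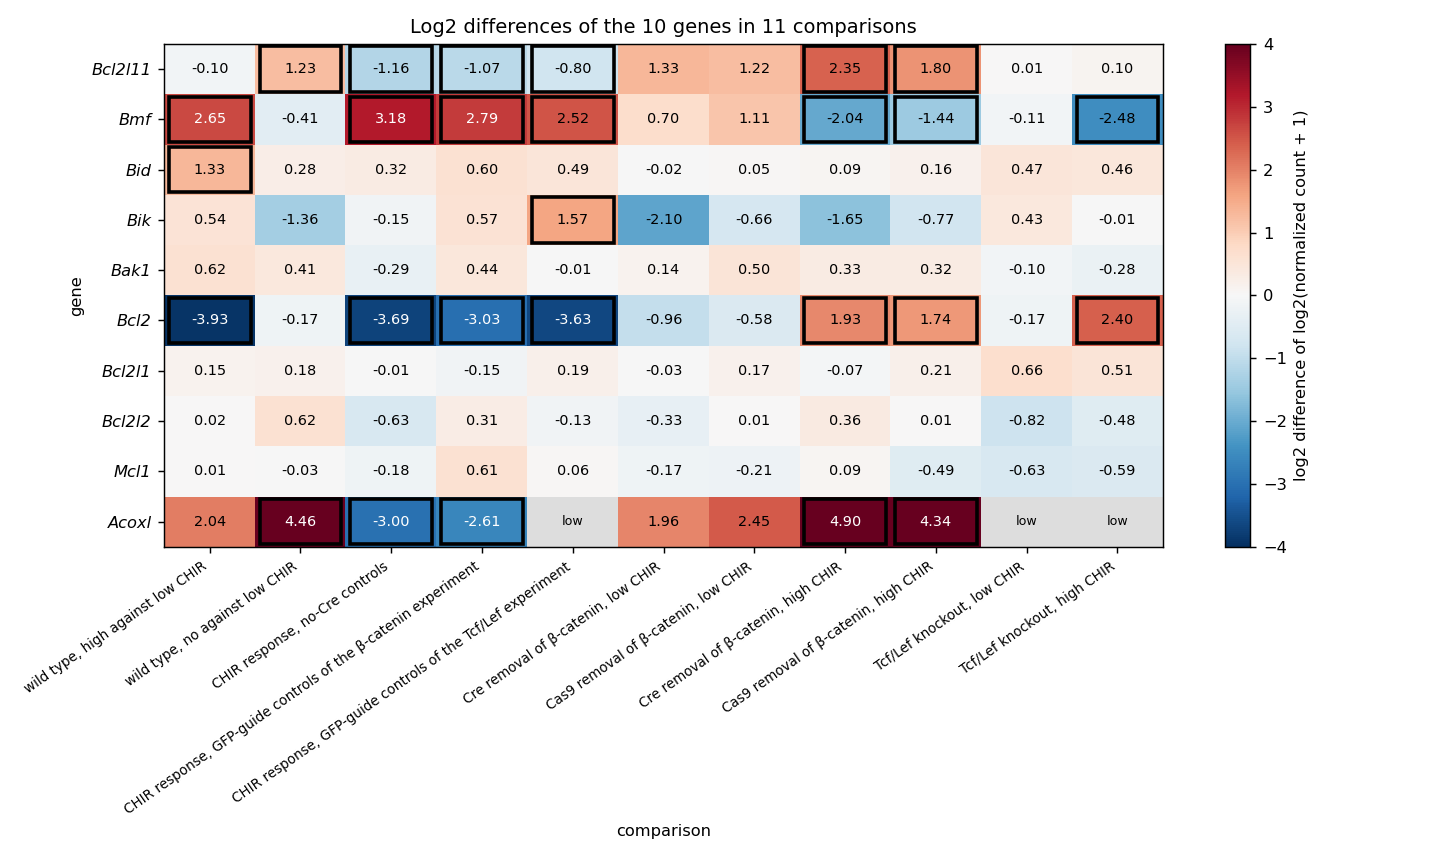
Log2 difference of each member (rows) in each comparison (columns), computed on normalized count + 1, with outlined cells past both thresholds and grey cells too low to be tested (the low-CHIR removal values of Bcl2l11 and Acoxl are descriptions). Bcl2 (-3.93 in wild type) and Bmf (2.65) stand at opposite ends in high against low CHIR, and both carry the opposite sign in the removals and QKO in high CHIR.

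Among the BH3-only genes, Bcl2l11 had its highest wild-type level without CHIR. Within the β-catenin experiment its levels were highest after β-catenin removal. In no CHIR its normalized counts were 1479, 1095 and 1349, in low CHIR 486, 534 and 658, and in high CHIR 505, 339 and 816. Each no-CHIR library was above each library of the other 2 groups, and low and high CHIR overlapped. The no against low difference was 1.23 on the log2 scale (SE 0.28, adjusted p = 0.0378), or 1308 ± 196 against 559.1 ± 88.5 normalized counts (SD, n = 3 each). The call was lost without any 1 of the 6 libraries (adjusted p 0.0744 to 0.156, with differences of 1.13 to 1.35). High and low CHIR differed by -0.1 in wild type, with a 95% interval of -0.72 to 0.53.

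In the transfected controls Bcl2l11 was lower in high than in low CHIR. Without Cre it was 887 and 725 in low and 385 and 336 in high CHIR, a log2 difference of -1.16 (SE 0.26, adjusted p = 0.0141). With the GFP guide of the β-catenin experiment it was 677 and 918 in low and 375 and 373 in high CHIR, a difference of -1.07 (SE 0.26, adjusted p = 0.0239). In both sets each high-CHIR library was below each low-CHIR library, but both calls were lost without 3 of the 4 libraries (all but no-Cre low replicate 2 and GFP-guide low replicate 1), at adjusted p up to 0.115 and 0.174. In the GFP-guide controls of the Tcf/Lef experiment it was 779, 661 and 905 in low and 489, 418 and 428 in high CHIR, a difference of -0.8 (SE 0.16, adjusted p = 0.00556). That value was -0.87 without the library rich in blood markers.

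Removal of β-catenin raised Bcl2l11 in high CHIR. With Cre it counted 2340 and 1438, above both no-Cre libraries, a log2 difference of 2.35 (SE 0.26, adjusted p = 7.31e-05), or 5.09-fold. With Ctnnb1 guides it counted 1281 and 1321, above both GFP-guide libraries, a difference of 1.8 (SE 0.26, adjusted p = 0.00128), or 3.47-fold. Both calls held without any single library. In low CHIR, described without a test, Bcl2l11 was 2607 and 1560 with Cre and 1760 and 1922 with Ctnnb1 guides, 2.51-fold and 2.33-fold above the controls just given.

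Ordered by level in the β-catenin experiment, Bcl2l11 ran from Cre in low CHIR through Cre in high CHIR and Ctnnb1 guides in low CHIR, which overlapped, to Ctnnb1 guides in high CHIR. Below these came the low-CHIR controls, which overlapped each other, and then the high-CHIR controls, which also overlapped. All 8 removed libraries lay above all 8 controls, as a description, since the low-CHIR libraries among them led to the choice of Bcl2l11. No change of Bcl2l11 was detected in QKO. Its counts were 711 and 856 in low CHIR and 412, 491 and 531 in high CHIR, overlapping the GFP-guide libraries in both. The QKO difference was 0.01 in low CHIR, with a 95% interval of -0.39 to 0.4, and 0.1 in high CHIR, with an interval of -0.25 to 0.45.

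Acoxl was expressed at a low level and its counts rest on few reads. In no CHIR its normalized counts were 31.4, 43.9 and 32.4 (123, 30 and 29 reads), in low CHIR 0, 0 and 3.59, and in high CHIR 3.36, 4.19 and 13.1. All 3 no-CHIR libraries stood above the other 6. The no against low difference was 4.46 on the log2 scale (SE 0.75, adjusted p = 0.0121). Acoxl reached the mean of 10 normalized counts required for a test through no CHIR (mean 35.9), with means of 1.2 in low and 6.88 in high CHIR. Without that requirement the call held. Pooled over libraries, 182 reads in no CHIR stood against 3 in low CHIR, a ratio of 29.2 with a 95% counting interval of 9.84 to 143, which covers counting error only. Without low-CHIR replicate 3, the only one of its group with reads, the difference was 5.19, and without either no-CHIR replicate 2 or 3 or low-CHIR replicate 1 or 2 the call was lost (adjusted p up to 0.0695). High against low CHIR gave 2.04 (adjusted p = 0.119), from 20 against 3 reads.

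In the β-catenin experiment Acoxl followed the removal. Its calls there held with no requirement on the mean. It met that requirement through the removed groups (means of 36.5 to 61.4), with control means of 0.46 to 10.3. In low CHIR it counted 12.2 and 8.24 without Cre and 10.9 and 9.74 with the GFP guide, and in high CHIR 0.921 and 0 without Cre and 0.749 and 0.957 with the GFP guide. It thus fell by 3 on the log2 scale in the no-Cre controls (SE 0.54, adjusted p = 0.00323) and by 2.61 in the GFP-guide controls (SE 0.54, adjusted p = 0.00922), the second call being lost without any 1 of its 4 libraries (adjusted p 0.0507 to 0.0643). The 0 in 1 no-Cre library in high CHIR allows up to 3.11 normalized counts (3 reads). With β-catenin removed, high CHIR gave 43.4 and 37.6 with Cre and 37.8 and 35.2 with Ctnnb1 guides. These are log2 differences of 4.9 (SE 0.54, adjusted p = 7.01e-05) and 4.34 (SE 0.54, adjusted p = 0.000376). In reads they are 74 against 1 with Cre, a ratio of 83.6 with a counting interval of 14.6 to 3350, and 81 against 2 with Ctnnb1 guides, a ratio of 43.4 with an interval of 11.6 to 364. In low CHIR, described without a test, Acoxl was 62.1 and 28.3 with Cre and 53.9 and 68.9 with Ctnnb1 guides, in reads 4.69 times and 5.93 times the controls.

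In the order of levels the 4 removed groups overlapped as neighbours, the 2 low-CHIR controls overlapped below them, and the 2 high-CHIR controls overlapped at the bottom. In the Tcf/Lef experiment Acoxl ran from 0 to 8.65 normalized counts (0 to 10 reads), below the level at which genes were tested. QKO and GFP-guide libraries overlapped there in both CHIR levels.

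**Figure D2:**
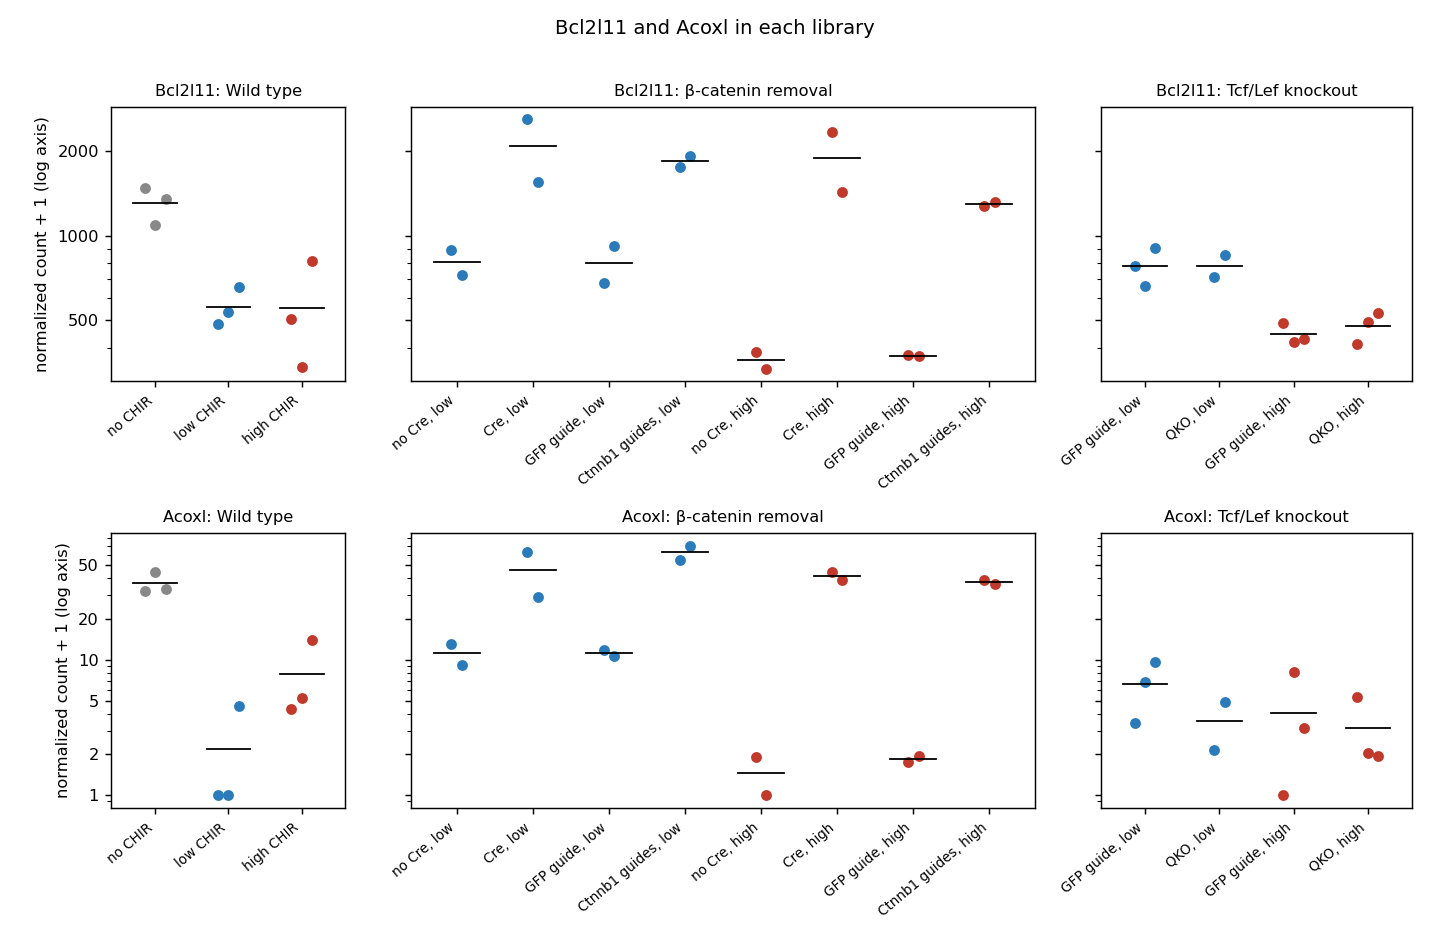
Normalized counts + 1 (log axis) of Bcl2l11 and Acoxl in each library, with 1 point per library and lines at the group means. In the β-catenin experiment the removed libraries of both genes lie above all controls, with the low-CHIR part a description. In QKO the libraries of both genes overlap those of the GFP guide, and Acoxl has too few reads there to show a pattern.

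Side by side, Bcl2l11 and Acoxl were called in the same direction in 5 comparisons: no against low CHIR, the CHIR response of both β-catenin controls, and both removals in high CHIR. The last 4 share control libraries, and Acoxl met the mean required for a test through the groups where it was high. The low-CHIR controls of the CHIR response also entered the comparison that led to the choice of Bcl2l11. The changes of Acoxl were the larger, 4.46 against 1.23 without CHIR and 4.9 against 2.35 with Cre in high CHIR. In wild type, high against low CHIR gave 2.04 for Acoxl and -0.1 for Bcl2l11, neither called. Across libraries Pearson's r of the pair on the log2 scale was 0.807 over the 9 wild-type, 0.97 over the 16 β-catenin and 0.259 over the 11 Tcf/Lef libraries, as a description. Those values rest on the separation of the groups. For deviations from the group means r was 0.613, 0.67 and -0.284, with libraries sharing depth and culture. In the Tcf/Lef libraries the few Acoxl reads leave no pattern to read.

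**Figure D3:**
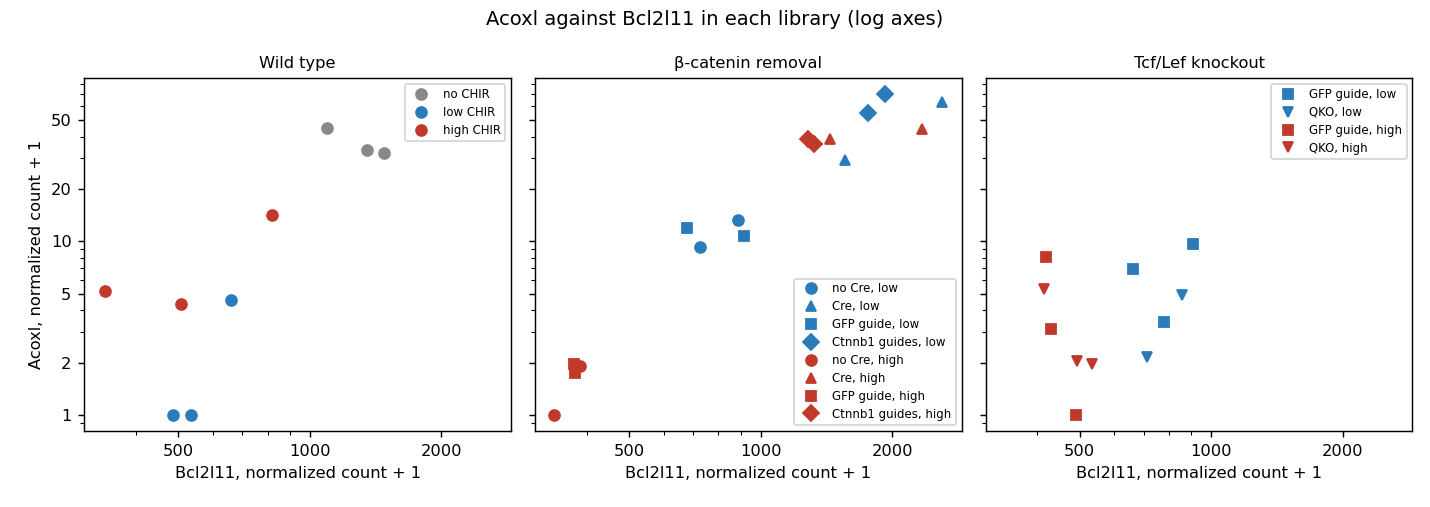
Acoxl against Bcl2l11, both as normalized count + 1 on log axes, with 1 point per library and 1 panel per experiment. Removed libraries of the β-catenin experiment lie at the upper right (Acoxl 28.3 to 68.9) and high-CHIR controls at the lower left (Acoxl 0 to 0.957). The low-CHIR removed libraries are shown as a description.

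The neighbours of the pair were taken by position, whatever their values. On the Acoxl side lie Mtln, which encodes the mitochondrial peptide mitoregulin, and Bub1, a spindle checkpoint kinase whose gene ends 7010 bases before Acoxl. On the Bcl2l11 side lie the noncoding genes Gm14005, Gm14010 and Gm14008, of which Gm14010 was in 1 table and not tested. Of Mtln, Bub1 and Gm14005, tested in 14 comparisons, and Gm14008, tested in 10, 0 were called by limma or edgeR. DESeq2 called Bub1 and Gm14005 in 1 comparison each. At an unadjusted p under 0.05 (limma) Mtln stood in 1 comparison, Bub1 in 4, Gm14005 in 2 and Gm14008 in 0. With Cre in high CHIR Bub1 differed by -0.54 (SE 0.18, adjusted p = 0.0957). Gm14005, which starts beyond Bcl2l11 on the minus strand, differed by 1.36 with Cre and 1.62 with Ctnnb1 guides in high CHIR, with 95% intervals of -0.52 to 3.23 and -0.26 to 3.49, so a change of the size seen in Bcl2l11 was not detectable in it.

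**Figure D4:**
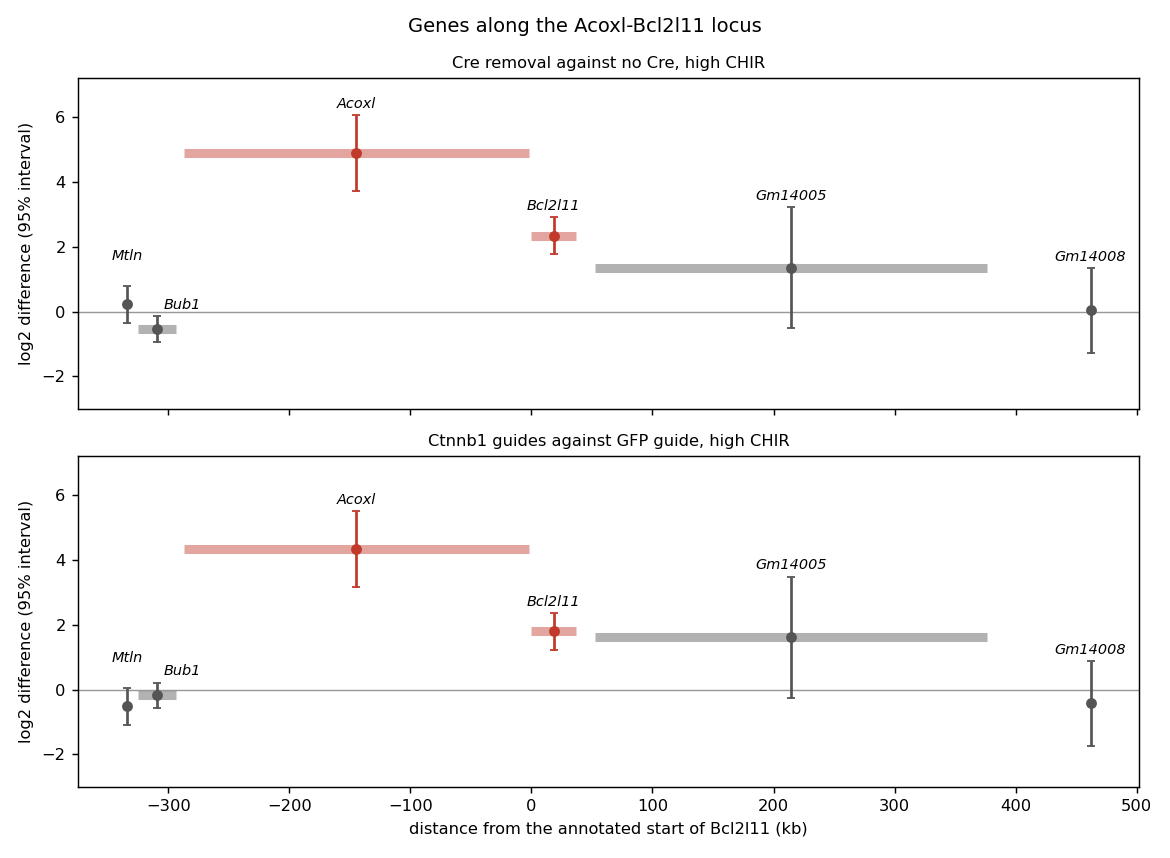
Log2 differences with 95% intervals for the genes named at the locus in high CHIR after β-catenin removal by Cre (top) or Ctnnb1 guides (bottom), drawn at their distance in kb from the start of Bcl2l11, with bars for the gene bodies. Acoxl (4.9 with Cre) and Bcl2l11 (2.35) stand above 0, and the intervals of Gm14005 include 0 in both removals.

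Bmf, a BH3-only gene whose protein is known to be held at the cytoskeleton, rose in high CHIR in every experiment. It lies at chr2:118528757-118549687 on the minus strand. In wild type it counted 128, 42.4 and 39.1 in no CHIR, 92.0, 92.1 and 59.9 in low CHIR and 1058, 366 and 334 in high CHIR. All high-CHIR libraries stood above the other 6, and replicate 1 was far above its group. The high against low difference was 2.65 (SE 0.53, adjusted p = 0.00961), from 81.3 ± 18.6 to 585.7 ± 409 (SD, n = 3 each).

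The controls showed the same rise. Without Cre Bmf went from 82.2 and 125 to 909 and 948, a difference of 3.18 (SE 0.33, adjusted p = 3.99e-05). With the GFP guide it went from 47.7 and 80.1 to 405 and 462 in the β-catenin experiment (2.79, SE 0.33, adjusted p = 0.000148). In the Tcf/Lef experiment it went from 91.7, 53.3 and 96.0 to 562, 337 and 483 (2.52, SE 0.32, adjusted p = 0.000284).

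In high CHIR each intervention lowered Bmf. With Cre it was 279 and 182, a difference of -2.04 from the no-Cre libraries (SE 0.33, adjusted p = 0.00152). With Ctnnb1 guides it was 171 and 147, a difference of -1.44 (SE 0.33, adjusted p = 0.0247), a call lost without any 1 of the 4 libraries (adjusted p 0.0836 to 0.203). In QKO it was 59.1, 71.7 and 121, each below every GFP-guide library, a difference of -2.48 (SE 0.32, adjusted p = 0.00224), and -2.32 without the library rich in blood markers.

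In low CHIR Bmf counted 215 and 127 with Cre (0.7, adjusted p = 0.477), 125 and 144 with Ctnnb1 guides (1.11, adjusted p = 1) and 62.7 and 83.1 in QKO, none called. The effect of removal in high CHIR minus that in low CHIR was -2.74 for Cre (SE 0.47, adjusted p = 0.011) and -2.55 for Ctnnb1 guides (SE 0.47, adjusted p = 0.0262). The Cre call was lost without no-Cre low replicate 1 or Cre low replicate 1 (adjusted p up to 0.0609) and with the fit restricted to the libraries compared (adjusted p = 0.0718), and the Ctnnb1-guide call without 7 of the 8 libraries, all but GFP-guide low replicate 2 (adjusted p up to 0.165). For QKO the difference was -2.37 (SE 0.48, adjusted p = 0.122), and -2.19 with the paired replicates as a block (SE 0.37, adjusted p = 0.0252).

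Bid, at chr6:120891930-120916853 on the minus strand, encodes a BH3-only protein that caspase-8 activates by cleavage, and its exons overlap those of Bcl2l13. In wild type it was 172, 226 and 123 in low CHIR and 390, 322 and 615 in high CHIR, without overlap (1.33, SE 0.3, adjusted p = 0.0171). Without low-CHIR replicate 1 or 3 the call was lost (adjusted p 0.0545 and 0.0799). In the controls high against low CHIR gave 0.32, 0.6 and 0.49, none called, and no removal or QKO called it.

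Bik, at chr15:83526862-83544634 on the plus strand, encodes a BH3-only protein of the endoplasmic reticulum. In the GFP-guide controls of the Tcf/Lef experiment it rose from 122, 135 and 115 in low to 246, 449 and 457 in high CHIR (1.57, SE 0.29, adjusted p = 0.0034), and the difference was 1.86 without the library rich in blood markers. The same comparison gave 0.54 in wild type, -0.15 without Cre and 0.57 with the GFP guide of the β-catenin experiment, none called. With Cre, Bik was 101 and 43.8 against 473 and 178 in low CHIR (-2.1, adjusted p = 0.153) and 126 and 53.4 against 345 and 197 in high CHIR (-1.65, adjusted p = 0.089), groups that did not overlap. edgeR called neither (adjusted p = 0.179 and 0.105), and DESeq2 called both (adjusted p = 0.00877 and 0.0292). With Ctnnb1 guides the differences were -0.66 and -0.77, and in QKO 0.43 and -0.01.

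Bak1, at chr17:27019810-27029009 on the minus strand, encodes the effector that forms the pore, and its exons overlap those of Ggnbp1. It was called in none of the 14 comparisons by limma, edgeR or DESeq2, and was at an unadjusted p under 0.05 in 0. Its group means ran from 100.9 to 158.7 normalized counts in wild type, from 91.84 to 189.5 in the β-catenin experiment and from 68.95 to 83.26 in the Tcf/Lef experiment. The largest difference in the CHIR comparisons was 0.62 in wild type, high against low, with a 95% interval of -0.14 to 1.39.

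Among the pro-survival genes, Bcl2, at chr1:106538178-106714274 on the minus strand, fell in high CHIR in every experiment. Its exons overlap those of D630008O14Rik, and the strand setting of the counting is not stated. In wild type it was 3283, 3248 and 2847 in no CHIR, 3636, 2965 and 3989 in low CHIR and 208, 174 and 332 in high CHIR. No and low CHIR overlapped (-0.17 on the log2 scale) and high CHIR lay below both. The high against low difference was -3.93 (SE 0.22, adjusted p = 7.37e-06), from 3530 ± 520 to 238.2 ± 82.8 (SD, n = 3 each).

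The controls repeated this fall. Without Cre Bcl2 went from 3998 and 4088 to 300.1 and 327 (-3.69, SE 0.22, adjusted p = 6.1e-07). With the GFP guide it went from 4260 and 4638 to 444 and 670 in the β-catenin experiment (-3.03, SE 0.22, adjusted p = 2.65e-06). In the Tcf/Lef experiment it went from 4764, 5341 and 3934 to 326, 427 and 380 (-3.63, SE 0.14, adjusted p = 8.63e-08).

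In high CHIR every intervention left Bcl2 above its controls. With Cre it was 1338 and 1062 (1.93, SE 0.22, adjusted p = 8.83e-05), and with Ctnnb1 guides 1749 and 1892 (1.74, SE 0.22, adjusted p = 0.000416). In QKO it was 1906, 2022 and 2022 (2.4, SE 0.14, adjusted p = 1.05e-05), and the difference was 2.3 without the library rich in blood markers. These levels were still below those of low CHIR, where Bcl2 was 2568 and 1690 with Cre, 2843 and 3107 with Ctnnb1 guides and 3900 and 4385 in QKO. In low CHIR the removals gave -0.96 with Cre (adjusted p = 0.111) and -0.58 with Ctnnb1 guides (adjusted p = 1), with both libraries of each below both controls.

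The effect in high minus that in low CHIR was 2.88 for Cre (SE 0.31, adjusted p = 0.000343), 2.32 for Ctnnb1 guides (SE 0.31, adjusted p = 0.00358) and 2.57 for QKO (SE 0.21, adjusted p = 0.000441). All calls of Bcl2 held without any single library. Ordered by mean in the β-catenin experiment, Bcl2 ran from the GFP guide and no Cre in low CHIR through Ctnnb1 guides and Cre in low CHIR, Ctnnb1 guides and Cre in high CHIR to the GFP guide and no Cre in high CHIR. Cre in low CHIR overlapped Ctnnb1 guides in high CHIR, and no other neighbours overlapped. QKO thus raised Bcl2 and lowered Bmf in high CHIR while Bcl2l11 stayed within an interval of -0.25 to 0.45. Whether QKO and β-catenin removal differed for Bcl2l11 was not tested. They came from separate experiments with knockout periods of 48 h and 24 h, which cannot be told apart from the genes targeted.

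**Figure D5:**
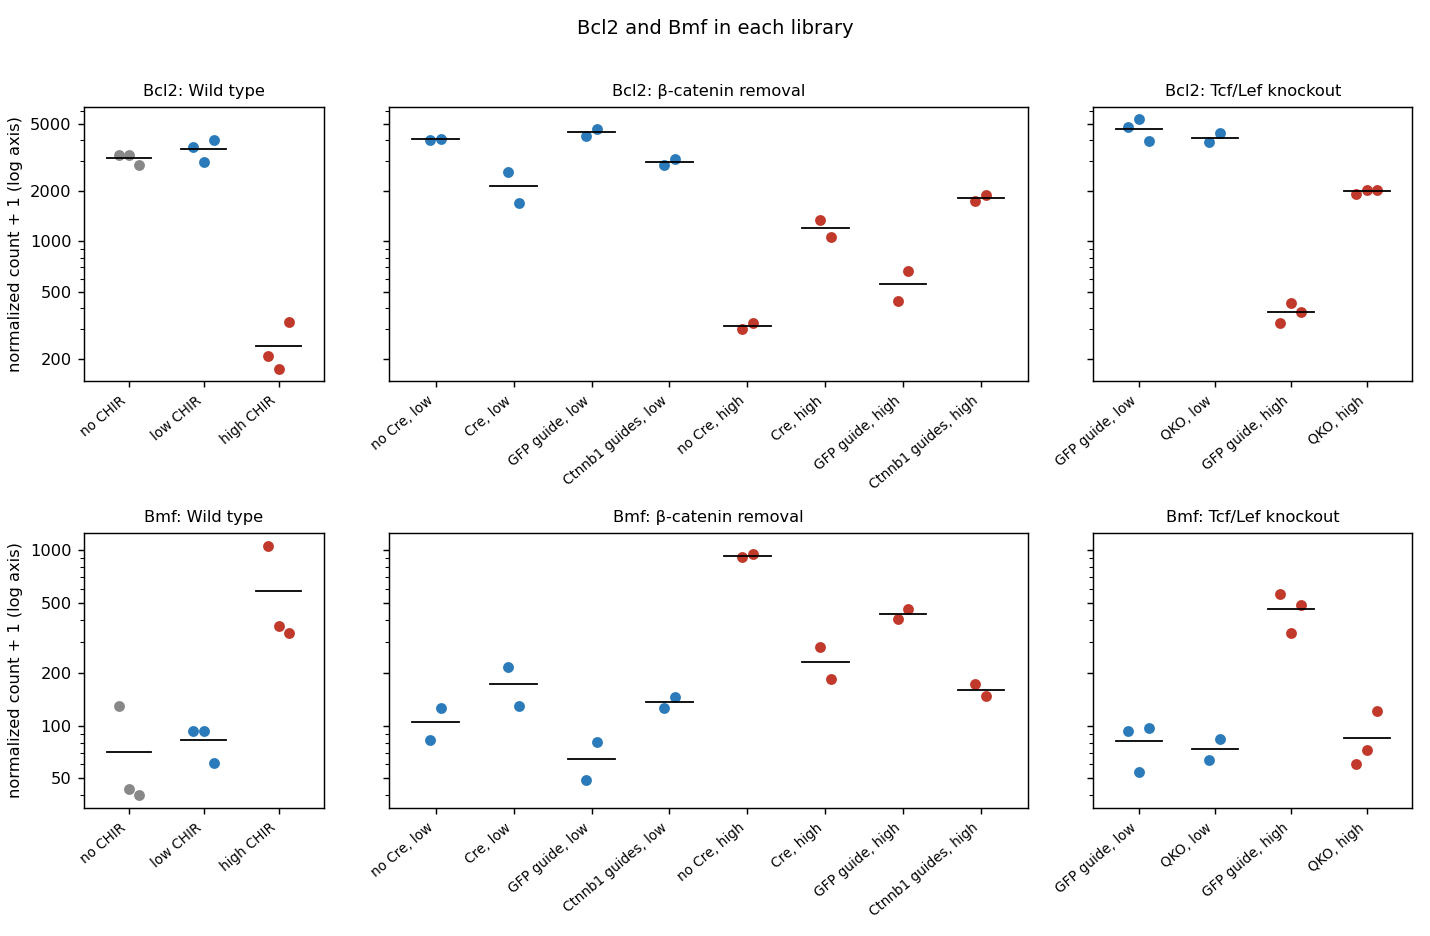
Normalized counts + 1 (log axis) of Bcl2 and Bmf in each library, with 1 point per library and lines at the group means. In high CHIR Bcl2 is at 174 to 332 and Bmf at 334 to 1058 in wild type, and in the removals and QKO both lie between the low-CHIR and the high-CHIR controls or at the low-CHIR level.

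Bcl2l1, which encodes BCL-XL and lies at chr2:152780668-152831728 on the minus strand, had the highest level per length of the 9 BCL2 family members described here in wild-type NPCs, at group means of 729 to 835 normalized counts per kb of exon. Bcl2 followed in no and low CHIR, with group means of 26 to 386 per kb across the 3 doses, and Mcl1 stood at 229 to 234 per kb. Bcl2l1 was not called in any of the 14 comparisons by limma, edgeR or DESeq2, with an unadjusted p under 0.05 in 2, both of QKO. In QKO it was 2062 and 2890 against 1389, 1336 and 1975 with the GFP guide in low CHIR (0.66, adjusted p = 0.904). In high CHIR it was 2010, 2540 and 3071 against 1640, 1536 and 2150, with overlap (0.51, adjusted p = 0.288). With the paired replicates as a block the high-CHIR difference was called (0.51, SE 0.11, adjusted p = 0.0154).

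Mcl1, at chr3:95658788-95663176 on the plus strand, encodes a short-lived pro-survival protein. Its wild-type group means were 781.6 to 800.2 normalized counts, and high against low CHIR gave 0.01 with a 95% interval of -0.34 to 0.35. In high CHIR QKO counted 859, 947 and 673 against 1355, 1680 and 823 (-0.59, adjusted p = 0.35), a difference that the block called (SE 0.15, adjusted p = 0.0345). Bcl2l2, which encodes BCL-W, lies at chr14:54883377-54888234 on the plus strand and overlaps exons of Gm20521. It was called in 0 of the 14 comparisons by limma, edgeR or DESeq2, as was Mcl1, each with an unadjusted p under 0.05 in 1. The group means of Bcl2l2 ran from 144 to 222.7 in wild type, from 117.9 to 182.2 in the β-catenin experiment and from 94.15 to 188.8 in the Tcf/Lef experiment.

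Other genes of the pathway came from lists taken from general knowledge. Of 15 other BCL2 family genes 10 or 11 were tested per table, and over the 6 removal and QKO comparisons 0 were called by limma or edgeR and 3 by DESeq2, with 6 at an unadjusted p under 0.05. Of all genes, limma called 0.0063% to 8.65% in these 6 comparisons, edgeR 0.0063% to 8.55% and DESeq2 0.139% to 11.7%. In high against low CHIR 3 of 11 were called in wild type (2 higher) against 10.4% of all genes, 2 of 11 without Cre (both lower) against 8.05%, 3 of 11 with the GFP guide of the β-catenin experiment (1 higher) against 7.51% and 5 of 10 in the Tcf/Lef experiment (3 higher) against 14.9%. Their median log2 difference there was 0.02 to 0.14. Bnip3l, a mitophagy receptor, was lower in all 4 (-0.89, -0.8, -0.82 and -0.67). Bad, a BH3-only gene, was lower in the 3 transfected controls (-0.82, -0.66 and -0.59) and higher without CHIR in wild type (0.62). Pmaip1, which encodes the BH3-only protein NOXA, was higher in both GFP-guide controls (3.39 and 3.87), and Bok, an effector-like gene, was higher in wild type (1.51) and the Tcf/Lef controls (1.54).

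From the list of caspase and apoptosome genes, Casp6, which encodes an executioner caspase, was lower in high than in low CHIR in wild type (-1.04) and lower with Cre in high CHIR (-0.7). The next counts are over the 6 removal and QKO comparisons, against the shares of all genes given above. On 12 caspase and apoptosome genes there were 2 calls by limma, 2 by edgeR and 3 by DESeq2, with 6 at an unadjusted p under 0.05. On 9 regulators of BIM there were 0 by limma, edgeR or DESeq2, with 5 at an unadjusted p under 0.05. On 5 inhibitors of apoptosis there were 0 by limma or edgeR and 2 by DESeq2, with 4 at an unadjusted p under 0.05. Of 12 p53 targets, 7 were higher in QKO in high CHIR, where 2.54% of all genes were called, with a median of 1 against 0 over all genes, and 6 were lower and 1 higher in the CHIR response of the same controls, where 14.9% were. Fas, a death receptor gene on that list, was lower in high CHIR in the 3 transfected controls (-2.44, -2.18 and -3.01). In high CHIR it was higher with Cre (3.59), Ctnnb1 guides (1.51) and QKO (2.77).

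The genes whose pattern was most like that of Bcl2l11, by the lowest of the 3 correlations on the log2 scale within the tables among 14951 genes, were Cask (0.904), Tspan7 (0.895), Meis3 (0.871), Fgl2 (0.869) and Fnbp1 (0.857), over 9, 16 and 11 libraries. Cask encodes a scaffold kinase, Tspan7 a tetraspanin, Meis3 a homeodomain factor, Fgl2 a fibrinogen-like protein and Fnbp1 a membrane-bending protein. Bcl2 came at place 1039 (0.509). Acoxl has no place in this order, since it was not tested in the Tcf/Lef table.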

How the data were processed

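Bulk RNA was measured in 36 libraries of mouse NPCs (SMARTer cDNA, paired-end reads of 150 bases). Per the methods and the submitters' processing notes, the authors aligned reads with STAR 2.5.1a1 to GRCm38 and GRCh38 combined and counted unique reads per Ensembl gene with featureCounts 1.4.6-p52, with the strand setting not given in the sources used here. The deposited signal is a normalized count: reads divided by 1 DESeq2 size factor per library, in 3 tables normalized separately. Genes with under 10 reads in total are not in them. Deposited comparison tables hold the authors' fold changes and p-values and were not used, nor were 50 columns of per-library values in them.

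All values were whole multiples (within 0.1) of the worth of 1 read, so reads were recovered for 100% of values. Tests used limma 3.58.1 (R 4.3.3) with a variance trend on log2(normalized count + 1) over all libraries of a table, for genes with a mean of at least 10 (17411, 16780 and 15878 genes), and were tested on simulated data. Alternatives were edgeR 4.0.16, DESeq2 1.42.0, TMM scaling, a pseudocount of 0.5, no filter, a log2 threshold of 1, only the libraries compared, the replicate block and leaving out each library. In the Tcf/Lef experiment same-numbered libraries deviated together (r of 0.249 to 0.63 over all pairs). The deposited comparison headers give shared dates, so numbers were taken as pairs there. The main tests nonetheless compared groups only, so their p-values ignore this pairing. Fits with the pairs as a block are given beside them as an alternative. Places come from GENCODE vM21, and motif windows from RefSeq. Gene symbols were matched for 25701, 26800 and 26407 identifiers.

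The members and gene lists were chosen with earlier results of these data known. Named were the 10 members, neighbours of the Acoxl-Bcl2l11 pair by position, the targeted genes, the 5 genes most like Bcl2l11, and list genes called in at least 2 comparisons that share no libraries. A neighbouring gene and a list gene that meet this rule are not reported here. Depth limits Acoxl most, with 0 to 123 reads per library, and intervals on reads cover counting error only.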

Additional observations from a re-analysis of the deposited data

Results flagged for a closer look

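The effects of an intervention differed between high and low CHIR by a test of the difference itself (limma, adjusted over all genes) in 5 cases. For Bcl2 the log2 difference in high minus that in low CHIR was 2.88 with Cre, 2.32 with Ctnnb1 guides and 2.57 in QKO. For Bmf it was -2.74 with Cre and -2.55 with Ctnnb1 guides, both calls being lost when some single libraries are left out. The Bcl2 values hold for 3 sets of libraries, of which the Cre and Ctnnb1-guide sets were fitted in 1 table. No sample of a member was tested for standing apart, since no group has 4 or more samples.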

How the results depend on the processing

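Over the alternatives that keep all libraries, 252 values of single called members kept their direction and call and 2 calls were lost, Bmf for Cre in high minus low with only the libraries compared, and Bcl2l11 in the Tcf/Lef controls (-0.8) with a log2 threshold of 1; 0 reversed. Leaving out a library kept 138 and lost 35, again with 0 reversed; where a group keeps 1 library, it is assumed to vary like the others. Members called without 1 library ranged from 0 to 1 for no against low CHIR (2 with all), 2 to 3 for the GFP-guide CHIR response of the β-catenin experiment (4 with all), 0 to 1 for Cre in low CHIR (0 with all), and 1 to 2 for the high minus low difference of Cre and of Ctnnb1 guides (2 with all). In the low-CHIR and high minus low comparisons of Cre and Ctnnb1 guides, counts are over the 8 members tested. Cre in low CHIR called 0, but 2 (Bcl2 and Bik) with the replicate block, against 3.06% of all genes, and 2 with DESeq2, against 1.66%. In high CHIR it called 4, but 5 with the block, against 15.7% of all genes, or with DESeq2, against 11.7%. Both added Bik (adjusted p = 0.000248 with the block and 0.0292 with DESeq2, and 0.000307 and 0.00877 in low CHIR). QKO in high CHIR called 2, and 4 with the block, against 7.44% of all genes. For high minus low, Cre called 2, but 1 with only the libraries compared, against 0.3%. QKO called 1, but 2 with the block, against 0.857%, and 2 with DESeq2, against 0.995%. The cause of these shifts was not tested. In the wild type (r of -0.0156 to 0.177) numbers were not taken as pairs, nor in the β-catenin experiment, where r was 0.196 to 0.491 but there are 2 pairs and the rule asks for 3.

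Counts over all genes moved by more than 1.5 times as follows. With the block, Cas9 in high CHIR went from 854 to 2133, in low from 9 to 21 and high minus low from 87 to 235; Cre in high CHIR from 1452 to 2639, in low from 55 to 513 and high minus low from 167 to 526; QKO from 404 to 1181, from 1 to 16 and from 20 to 136; the CHIR response from 1350 to 2661 without Cre and from 1260 to 2562 with the GFP guide. With DESeq2, Cas9 gave 1479, 30 and 210, Cre in low CHIR 278 and high minus low 381, QKO 859, 22 and 158, and no against low CHIR 1784 (865 in limma). With only the libraries compared, Cas9 gave 1729 and 0, Cre 714, 11 and 51, QKO in low CHIR 0, the no-Cre CHIR response 616 and no against low CHIR 2038. A log2 threshold of 1 gave 1568 for the Tcf/Lef controls (2372) and 499 for no against low CHIR. No filter gave 4 for QKO in low CHIR, and a pseudocount of 0.5 gave 0 for Cas9 in low CHIR. The pseudocount and the count models moved Acoxl by more than 1.5 times: no against low CHIR was 5.16 with a pseudocount of 0.5, and Cre in high CHIR 5.6 with it, 6.07 with edgeR and 6.38 with DESeq2.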
